A study of Homo sapiens with 16 samples.

Results

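The genes described here are 10 immediate early transcription regulators: EGR1, EGR2 and EGR3, FOS, FOSB, FOSL1 and FOSL2, JUN and JUNB, and IER2. They were taken as a listed set of symbols, chosen with earlier results of these data known. All 10 were among the 31496 genes to which the transcripts of the series were summed and among the 19836 genes that passed the filter on low counts. The series sequenced polyadenylated RNA, keeping the strand, of HCT116, an established human colon cancer cell line, after CRISPR interference against the long noncoding RNA NORAD. CRISPR interference directs a catalytically inactive Cas9 joined to a repressor to a promoter. The libraries fell into 3 pairs of groups: labelled NORAD knockdown (n = 2) and wild type (n = 2) at 24 h, knockdown (n = 3) and wild type (n = 3) at 48 h, and knockdown (n = 3) and wild type (n = 3) at 96 h. Knockdown was induced with doxycycline at 0.5 µg/ml, and the same protocol text stands on the wild-type samples, so the labels used here do not say whether wild-type cells received it. The labels do not give the clone, the guides or separate cultures for the replicates, so the p-values reflect only how far these libraries vary, and that variation may be technical.

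Immediate early genes are transcribed within minutes of a growth factor or stress signal, without new protein synthesis. Signals through RAS and the ERK kinases reach ELK proteins, which sit with serum response factor (SRF) on CArG boxes in their promoters. CREB and ATF proteins bind cAMP response elements there, of which TGACG is a half-site. The EGR genes encode zinc finger transcription factors. FOS and JUN family proteins pair through leucine zippers into AP-1, which regulates proliferation, invasion and survival genes and is often active in colon cancer cells. IER2 encodes a small nuclear protein of the same early wave. The mRNAs are short-lived, and AU-rich elements in their 3′ untranslated regions (UTRs) recruit decay factors. NORAD itself is known for binding the Pumilio proteins, which recognise UGUANAUA in 3′ UTRs.

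The promoter windows of EGR1 and EGR2 are shown for the CArG box, the site bound by SRF. It was found in the searched window of no other gene of the set with a listed promoter. FOSB, which also passed as higher at 48 h, had no match. RefSeq promoters (GRCh38.p14, 250 bases before to 50 bases after a start) were found for 8 of the 10 genes. EGR3 and FOSL1 were not in the table. Motifs were searched on both strands of these windows. Bases further upstream were not searched, so a CArG box there would be missed in any gene, FOS included. Capitals mark the CArG box and TGACG or its reverse complement CGTCA, and each line ends at the base before the start. The EGR1 window lies at chr5:138465339-138465478 on the plus strand. The EGR2 window lies at chr10:62816367-62816506 on the minus strand, before the one of 3 listed EGR2 starts that is nearest to its most counted transcript, 11 bases away. The FOS window, at chr14:75278688-75278827 on the plus strand, is set beside them as a promoter with TGACG and no CArG box match in the window.
EGR1: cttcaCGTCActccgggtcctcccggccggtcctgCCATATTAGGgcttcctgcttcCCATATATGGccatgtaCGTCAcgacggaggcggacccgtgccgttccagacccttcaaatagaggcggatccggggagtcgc
EGR2: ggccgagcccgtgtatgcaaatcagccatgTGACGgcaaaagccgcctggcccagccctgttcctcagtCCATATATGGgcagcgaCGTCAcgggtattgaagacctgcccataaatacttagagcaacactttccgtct
FOS: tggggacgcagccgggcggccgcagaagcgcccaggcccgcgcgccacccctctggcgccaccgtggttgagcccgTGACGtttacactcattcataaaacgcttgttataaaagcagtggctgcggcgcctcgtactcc
The CArG boxes of EGR1 began 105 and 83 bases before the start, and that of EGR2 began 71 bases before it. In EGR1 the nearer box, and in EGR2 the only one, was CCATATATGG and was followed after 7 bases by CGTCA. A CArG box occurred in 1.29% of 35116 promoters of the table. TGACG on either strand was found for all 8 genes with an entry, against 24.6% of promoters. The AP-1 motif TGANTCA was found in FOSL2 alone, 5 bases into the transcript, against 7.71% of promoters. The EGR motif GCGNGGGCG was found in EGR1 and near one of the other EGR2 starts, against 9.43%, and the full cAMP response element TGACGTCA was in none of the 8, against 1.85%. A match of letters is a description and not a measured binding site. The part of these motifs in the differences between knockdown and wild type was not tested.

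The 3′ UTR sites are shown because the set is known for unstable mRNAs and because NORAD binds Pumilio proteins. The most counted coding transcript of each gene in GENCODE 29 was searched on the sense strand. UGUANAUA occurred in 5 of the 10 genes, once each in EGR1 and FOSL2, 2 times in EGR3 and 3 times each in EGR2 and JUN, against 25.3% of 15039 tested genes. These 3′ UTRs were 1211 to 4864 bases long, against a median of 991 bases over those genes, and the match counts were not adjusted for length. Capitals mark the Pumilio motif in the lines for EGR1, EGR2 and JUN and the longer AU-rich motif UUAUUUAUU in the line for FOS.
EGR1: uuaaccuuuuUGUAAAUAcugcuugacc
EGR2: uuaagggggaUGUACAUAuauucucuga
JUN: uaacuguguaUGUACAUAuauauauuuu
FOS: guuuuuaauUUAUUUAUUaagauggauu
The short AU-rich motif AUUUA occurred in 9 of the 10 genes, IER2 being without it, against 66.5% of genes. UUAUUUAUU occurred in FOS and FOSL2, against 8.11%. Of the genes with UGUANAUA, EGR1, EGR2 and EGR3 were higher at 48 h, while JUN and FOSL2 passed in none of the 3 knockdown comparisons. Of those without it, FOSB was higher at 48 h and 96 h, FOSL1, JUNB and IER2 were lower at 24 h, FOSL1 was also lower at 48 h, and FOS passed in none. The part of the motif in these differences was not tested.

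Library totals lay between 28391784 and 51853876 estimated counts. NORAD was not lower in the 24 h libraries labelled knockdown (208.7 ± 29.7 CPM, counts relative to library size, SD, n = 2) than in wild type (190.0 ± 15.9, n = 2), so at 24 h the groups are named by their labels. It averaged 21.5 ± 3.34 CPM in knockdown and 157.8 ± 3.99 CPM in wild type at 48 h, and 72.9 ± 6.86 CPM in knockdown and 182.8 ± 1.37 CPM in wild type at 96 h (SD, n = 3 each). Of 5 epithelial markers 4 were abundant, and VIL1 reached at most 0.668 CPM. They summed to 2963 to 3549 CPM in knockdown and 4579 to 4807 CPM in wild type at 48 h, and to 2939 to 4029 CPM at the other times. The 4 leukocyte markers summed to at most 0.973 CPM, and 2 endothelial markers to at most 3.09 CPM. The 4 fibroblast markers summed to 61.6 to 80.0 CPM in knockdown and 33.7 to 34.7 CPM in wild type at 48 h, nearly all of it COL1A1, while LUM was at or near 0. Fewer cells of a type and less RNA per cell cannot be told apart in such bulk libraries. Knockdown replicate 3 at 48 h stood apart: it scored -7.94 on the third principal component, against 54.2 and 61.2 for replicates 1 and 2, and retained-intron transcripts held 4.18% of its counts, against 5.73% and 5.29%. All 10 genes were highest in CPM in that replicate among the 3 knockdown libraries of 48 h, so 48 h results are also given without it. No share over all genes was taken for that count. Wild type at 48 h had 4.05% to 4.26% of its counts on retained-intron transcripts. At 24 h this share was 5.58% and 6.04% in libraries labelled knockdown, against 5.17% and 4.93% in wild type. Mitochondrial transcripts held 12.3% to 13.8% in knockdown and 10.4% to 11.1% in wild type at 48 h. The part of these markers and shares in the results was not tested.

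Levels between genes were compared per transcript length, as TPM (counts per annotated length, relative to the library), averaged over the 16 libraries. FOSL1 (133 TPM, range 82.2 to 189), IER2 (109.9, 86.4 to 152), JUNB (93.2, 50.8 to 166) and EGR1 (69.7, 34.4 to 109) formed the upper set. FOS (11.2, 7.13 to 14.8), JUN (10.8, 5.73 to 21.2) and FOSL2 (9.50, 4.52 to 20.1) came next, and EGR3 (2.58), FOSB (2.07) and EGR2 (0.874) were lowest. The gap between EGR1 and FOS was the only one between neighbours at which the ranges did not overlap. FOSL2 exceeded EGR3 and FOSB exceeded EGR2 in 16 of 16 libraries, although their ranges overlapped. The other neighbours held their order in 10 to 13 of 16 libraries, and the order changed largely with time or group. FOSL1 exceeded IER2 in every library of 24 h and 48 h and lay below it in every library of 96 h. JUN exceeded FOSL2 in every library of 24 h and 96 h and lay below it in every library of 48 h. EGR1 exceeded JUNB only in the knockdown libraries of 48 h. EGR3 lay below FOSB in every wild-type library of 24 h and 48 h and in knockdown replicate 2 of 48 h. HCT116 thus carried far more RNA of FOSL1 than of FOS, and of EGR1 than of EGR2 or EGR3. EGR2 rested on 30 to 143 estimated counts per library and EGR3 on 98 to 417, whereas EGR1, FOSL1, JUNB and IER2 had at least 3313.

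**Figure D1:**
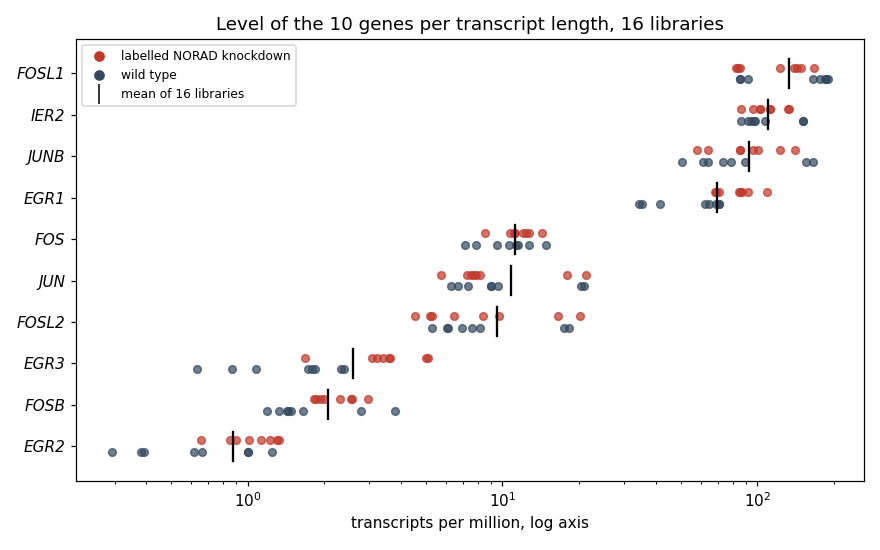
Level of each gene in TPM on a log axis (1 point per library, 8 labelled knockdown above 8 wild-type, vertical line the mean of 16). FOSL1, IER2, JUNB and EGR1 lie to the right of FOS, JUN and FOSL2, and EGR3, FOSB and EGR2 are lowest.

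The 3 EGR genes were higher in NORAD-depleted cells at 48 h, by 2.27- to 2.67-fold, and EGR1 and EGR3 were still higher at 96 h. Before each test the values are given in CPM on library sizes scaled by edgeR's default method (TMM), and the tests are edgeR's quasi-likelihood tests with Benjamini-Hochberg adjustment over 19836 genes at a threshold of 0.05.

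EGR1 (ENSG00000120738, chr5:138465490-138469315, plus strand, coordinates of all genes from GENCODE 29 on GRCh38) encodes the zinc finger factor that mitogens and stress induce most widely. At 48 h it stood at 249, 223 and 309 CPM in knockdown libraries, against 109, 125 and 109.8 CPM in wild type. Every knockdown library lay above every wild-type library, a 2.27-fold rise (log2 fold change 1.18, SE 0.0973, edgeR adjusted p = 2.47e-08). Without knockdown replicate 3 the log2 fold change was 1.04 (edgeR adjusted p = 9.61e-10). At 96 h it stood at 242, 253 and 244 CPM in knockdown, against 193, 167 and 198 CPM in wild type. The groups were apart again and the rise was smaller (log2 fold change 0.41, SE 0.0958, edgeR adjusted p = 0.00698). That call was lost without wild-type replicate 2 of 96 h (0.34, edgeR adjusted p = 0.0606). At 24 h EGR1 was at 141 and 136 CPM in the libraries labelled knockdown, against 159 and 167 CPM in wild type. Those libraries lay below wild type without passing (log2 fold change -0.23, SE 0.118, edgeR adjusted p = 0.212). In TPM they overlapped, at 68.6 and 68.4 in libraries labelled knockdown against 64.9 and 70.7 in wild type. Under the alternatives other than leaving 1 library out, the log2 fold change ranged from -0.23 to -0.013.

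EGR2 (ENSG00000122877, chr10:62811996-62919900, minus strand), best known for its role in myelinating Schwann cells and in the hindbrain, was scarce here. At 48 h it measured 2.14, 1.96 and 2.90 CPM in knockdown libraries, against 1.09, 1.11 and 0.827 CPM in wild type. It rose 2.30-fold with no overlap (log2 fold change 1.20, SE 0.209, edgeR adjusted p = 1.63e-04), and without knockdown replicate 3 the log2 fold change was 1.02. At 96 h the values were 3.50, 3.30 and 3.40 CPM in knockdown and 2.46, 2.44 and 3.17 CPM in wild type. The libraries did not overlap but the test was not passed (log2 fold change 0.34, SE 0.189, edgeR adjusted p = 0.321). At 24 h the libraries labelled knockdown held 1.87 and 1.60 CPM, against 1.28 and 1.35 CPM in wild type, which did not pass either (log2 fold change 0.39, SE 0.261, edgeR adjusted p = 0.363).

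EGR3 (ENSG00000179388, chromosome 8) encodes a zinc finger factor related to EGR1, known from muscle spindles and T cells. Its 48 h values were 9.46, 6.29 and 10.9 CPM in knockdown libraries, against 3.46, 3.81 and 2.70 CPM in wild type. This was the largest fold change among the 10 genes in any of the 3 knockdown comparisons, 2.67-fold (log2 fold change 1.41, SE 0.168, edgeR adjusted p = 2.48e-06), and without knockdown replicate 3 it was 1.24 on the log2 scale. At 96 h EGR3 held 10.0, 10.4 and 9.75 CPM in knockdown, against 5.34, 4.99 and 6.10 CPM in wild type. The groups stayed apart and the gene was 1.84-fold higher (log2 fold change 0.88, SE 0.159, edgeR adjusted p = 7.80e-04). At 24 h it was at 6.88 and 7.49 CPM in the libraries labelled knockdown and 4.82 and 5.49 CPM in wild type, apart but not past the test (log2 fold change 0.48, SE 0.204, edgeR adjusted p = 0.12).

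**Figure D2:**
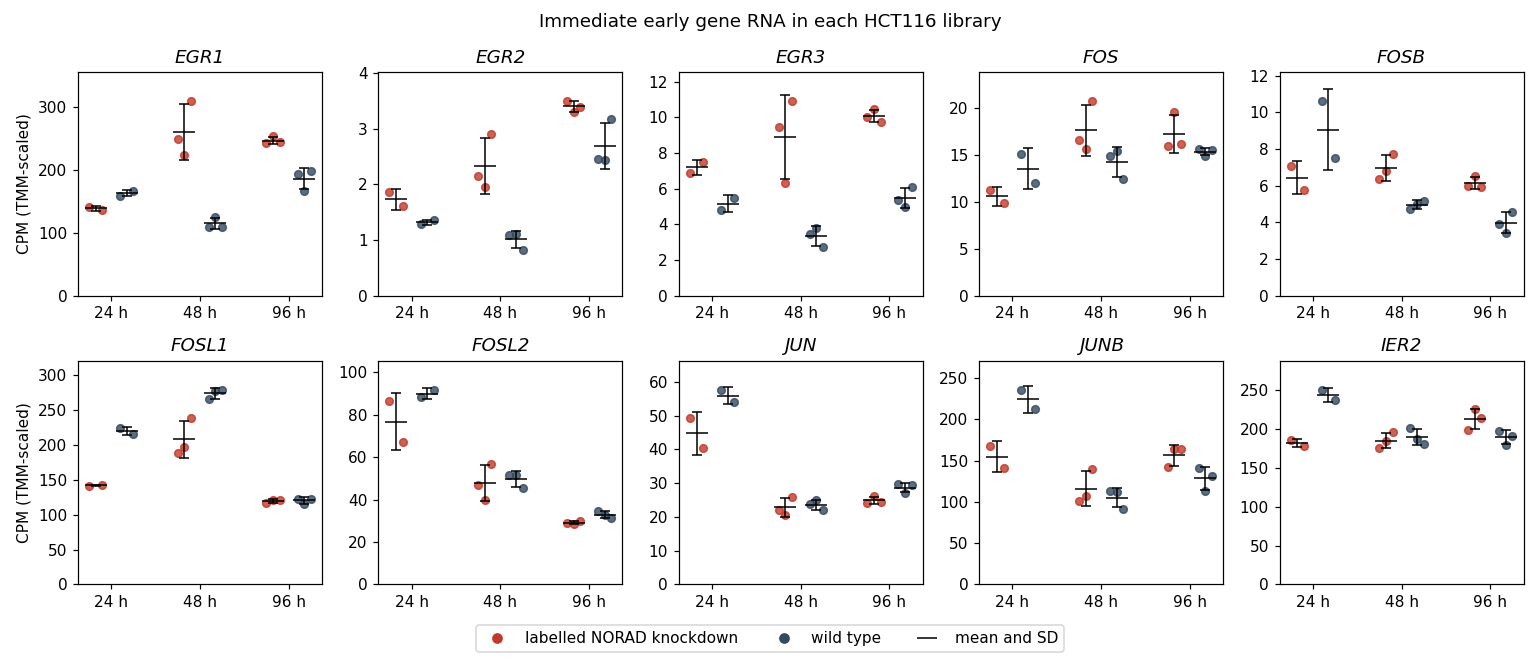
CPM of each gene in every library (points) with the mean and SD of each group (bars), libraries labelled knockdown left of wild type at 24 h, 48 h and 96 h. EGR1, EGR2 and EGR3 are above wild type at 48 h in every knockdown library, FOSL1 is below it at 24 h and 48 h, and FOSL2, JUN, JUNB and IER2 overlap at 48 h.

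Among the FOS family, FOSB was higher at 48 h and 96 h, FOSL1 was lower at 24 h and 48 h, and FOS and FOSL2 passed in none of the 3 knockdown comparisons. FOS (ENSG00000170345, chr14:75278774-75282230, plus strand) encodes the classical partner of JUN. It measured 16.6, 15.6 and 20.7 CPM in knockdown and 14.8, 15.4 and 12.4 CPM in wild type at 48 h. All knockdown values were higher by a narrow margin, and the test was just missed (log2 fold change 0.31, SE 0.120, edgeR adjusted p = 0.0533), with a log2 fold change of 0.18 without knockdown replicate 3. FOS passed as higher under total-count (0.44, edgeR adjusted p = 0.00527), upper-quartile (edgeR adjusted p = 0.00662) and abundance-dependent scaling (0.0409), and without knockdown replicate 2 of 48 h (0.0224). At 96 h FOS was at 15.9, 19.5 and 16.2 CPM in knockdown and 15.6, 14.9 and 15.5 CPM in wild type (log2 fold change 0.17, SE 0.119, edgeR adjusted p = 0.475). At 24 h it was at 11.3 and 9.88 CPM in the libraries labelled knockdown and 15.1 and 12.03 CPM in wild type, below it without passing (log2 fold change -0.36, SE 0.152, edgeR adjusted p = 0.12).

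FOSB (ENSG00000125740, chr19:45467995-45475179, plus strand), a FOS relative that accumulates as a truncated form in stimulated neurons, measured 6.38, 6.78 and 7.75 CPM in knockdown and 4.70, 5.00 and 5.19 CPM in wild type at 48 h. It rose 1.40-fold (log2 fold change 0.49, SE 0.144, edgeR adjusted p = 0.0128). Without knockdown replicate 3 the log2 fold change was 0.41 (edgeR adjusted p = 0.0316), and the call was lost under abundance-dependent scaling (0.38, edgeR adjusted p = 0.0643) and without wild-type replicate 1 of 48 h (edgeR adjusted p = 0.052). At 96 h FOSB was at 5.97, 6.51 and 5.93 CPM in knockdown and 3.92, 3.42 and 4.57 CPM in wild type. Here it rose 1.55-fold (log2 fold change 0.63, SE 0.144, edgeR adjusted p = 0.00577), a call lost without wild-type replicate 2 of 96 h (edgeR adjusted p = 0.0508). The order was the other way round at 24 h, with 7.09 and 5.79 CPM in the libraries labelled knockdown and 10.6 and 7.50 CPM in wild type. That difference did not pass (log2 fold change -0.49, SE 0.174, edgeR adjusted p = 0.0553).

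FOSL1 (ENSG00000175592, chr11:65892049-65900573, minus strand) encodes FRA-1, an AP-1 subunit without the strong activation domain of FOS that is associated with invasive carcinoma cells. It was the one gene of the set that was lower in knockdown at 48 h. The libraries labelled knockdown held 142 and 143 CPM at 24 h, against 224 and 216 CPM in wild type. The fall was 1.55-fold (log2 fold change -0.63, SE 0.0934, edgeR adjusted p = 1.08e-04), in libraries where NORAD itself was not lower. At 48 h FOSL1 was at 189, 197 and 238 CPM in knockdown and 266, 278 and 279 CPM in wild type. The groups were again apart, 1.32-fold lower (log2 fold change -0.40, SE 0.0757, edgeR adjusted p = 3.91e-04), and without knockdown replicate 3 the log2 fold change was -0.51. By 96 h the values, 117, 122 and 121 CPM in knockdown and 123, 115 and 123 CPM in wild type, overlapped (log2 fold change -0.01, SE 0.0761, edgeR adjusted p = 0.98).

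FOSL2 (ENSG00000075426, chr2:28392448-28417312, plus strand) encodes FRA-2, the other FOS-like subunit of this kind. At 48 h it measured 46.7, 40.0 and 56.8 CPM in knockdown and 51.7, 51.8 and 45.3 CPM in wild type, overlapping (log2 fold change -0.05, SE 0.107, edgeR adjusted p = 0.732; -0.19 without knockdown replicate 3). At 96 h it was at 29.2, 28.3 and 30.004 CPM in knockdown and 34.7, 33.0 and 31.2 CPM in wild type, apart by a narrow margin and not past the test (log2 fold change -0.18, SE 0.109, edgeR adjusted p = 0.391). The 24 h values were 86.4 and 67.3 CPM in the libraries labelled knockdown and 88.3 and 91.8 CPM in wild type (log2 fold change -0.23, SE 0.130, edgeR adjusted p = 0.273). No difference of FOSL2 between knockdown and wild type was thus shown at any of the 3 times.

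Neither JUN gene of the set passed at 48 h or 96 h with TMM scaling over all 16 libraries. JUN (ENSG00000177606, chr1:58780788-58784327, minus strand), which can pair with itself or with FOS proteins, was at 22.0, 20.5 and 26.0 CPM in knockdown and 23.9, 24.9 and 22.0 CPM in wild type at 48 h, with overlap (log2 fold change -0.05, SE 0.0939, edgeR adjusted p = 0.709; -0.15 without knockdown replicate 3). At 96 h it was at 24.3, 26.2 and 24.5 CPM in knockdown, against 29.6, 27.2 and 29.3 CPM in wild type (log2 fold change -0.20, SE 0.0925, edgeR adjusted p = 0.202). At 24 h the libraries labelled knockdown held 49.3 and 40.3 CPM, against 57.7 and 54.2 CPM in wild type. JUN was below wild type in all of those 96 h and 24 h libraries and missed the threshold each time (log2 fold change -0.32, SE 0.112, edgeR adjusted p = 0.0515 at 24 h). It passed as lower at 24 h from the 24 h libraries alone (-0.27, edgeR adjusted p = 0.0368). Leaving out knockdown replicate 2 (edgeR adjusted p = 0.0289) or replicate 3 (0.0138) of 48 h had the same result. JUNB (ENSG00000171223, chr19:12791496-12793315, plus strand), a subunit that can restrain JUN, was at 168 and 141 CPM in the libraries labelled knockdown and 236 and 213 CPM in wild type at 24 h. It was 1.45-fold lower (log2 fold change -0.54, SE 0.151, edgeR adjusted p = 0.0202). Leaving out knockdown replicate 2, wild-type replicate 1 or wild-type replicate 2 of 24 h ended that call, with edgeR adjusted p = 0.308, 0.148 and 0.0555. At 48 h JUNB was at 101, 107 and 140.4 CPM in knockdown and 113, 112 and 91.4 CPM in wild type (log2 fold change 0.14, SE 0.123, edgeR adjusted p = 0.401), and without knockdown replicate 3 its log2 fold change was -0.019. At 96 h it was at 142, 164 and 164 CPM in knockdown and 141, 114 and 132 CPM in wild type, apart but not past the test (log2 fold change 0.28, SE 0.123, edgeR adjusted p = 0.184). From the 96 h libraries alone JUNB passed as higher (0.29, edgeR adjusted p = 0.0146).

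IER2 (ENSG00000160888, chr19:13150415-13154908, plus strand) measured 186 and 178 CPM in the libraries labelled knockdown and 251 and 238 CPM in wild type at 24 h. It was 1.34-fold lower (log2 fold change -0.43, SE 0.0876, edgeR adjusted p = 0.00174), and the call was lost without knockdown replicate 2 of 24 h (edgeR adjusted p = 0.0792). At 48 h the values were 176, 184 and 196 CPM in knockdown and 201, 188 and 180.5 CPM in wild type, which overlapped (log2 fold change -0.03, SE 0.0714, edgeR adjusted p = 0.735; -0.076 without knockdown replicate 3). Under abundance-dependent scaling that value was 0.17 and passed (edgeR adjusted p = 0.0296). At 96 h they were 199, 226 and 214 CPM in knockdown and 198, 179 and 191 CPM in wild type, apart by a narrow margin without passing (log2 fold change 0.17, SE 0.0712, edgeR adjusted p = 0.152). From the 96 h libraries alone IER2 passed as higher (0.18, edgeR adjusted p = 0.0449).

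Counted over the set, 0 of the 10 genes were higher and 3 were lower at 24 h (FOSL1, JUNB and IER2), against 5.14% higher and 12.4% lower (17.6% in either direction) of all genes tested. At 48 h 4 were higher (EGR1, EGR2, EGR3 and FOSB) and 1 was lower (FOSL1), against 14.8% and 18.5% (33.2% in either direction). At 96 h 3 were higher (EGR1, EGR3 and FOSB) and 0 were lower, against 5.35% and 5.15% (10.5% in either direction). Leaving out knockdown replicate 2 of 24 h gave 1 call at 24 h, and leaving out wild-type replicate 2 of 96 h gave 1 call at 96 h. Without knockdown replicate 2 or replicate 3 of 48 h, which enter the shared estimate of spread, 6 and 5 genes passed at 24 h. At an unadjusted p below 0.05, 7, 6 and 6 of the 10 genes passed at 24 h, 48 h and 96 h. No share over all genes was taken at that threshold or in the fits with a library left out, so these counts have no background. The median log2 fold change of the set was -0.34 at 24 h, 0.22 at 48 h and 0.22 at 96 h, against -0.02, 0.06 and -0.01 over all genes. In CPM on TMM-scaled library sizes, the libraries of both groups did not overlap for 10, 6 and 9 of the 10 genes at 24 h, 48 h and 96 h, against 59.7%, 37.3% and 31.8% of all genes. In TPM the 24 h libraries of EGR1, FOSB, FOSL2 and JUN did overlap. At 24 h the calls depend on the scaling: total-count scaling moved the median of all genes by 0.21 on the log2 scale and upper-quartile scaling by 0.12, and the share of higher among called genes was 75.4% and 53.7% in place of 29.2%. FOSL1 stayed lower with its call under both, whereas under total-count scaling JUNB (-0.33, edgeR adjusted p = 0.0946) and IER2 (-0.22, edgeR adjusted p = 0.053) lost theirs and EGR3 passed as higher (0.69, edgeR adjusted p = 0.0292), as it did under upper-quartile scaling (0.0427). Under abundance-dependent scaling JUNB (edgeR adjusted p = 0.0813) and IER2 (0.0629) also lost their 24 h calls, FOSB passed as lower at 24 h (0.0399), JUNB as higher at 48 h (0.0242) and IER2 as higher at 96 h (0.0492). JUNB lost its 24 h call with no filter on low counts too (edgeR adjusted p = 0.0767). At 48 h total-count and upper-quartile scaling moved the median by 0.14 and 0.12, and the share was 68.9% and 64.3% in place of 44.4%. The rises of the EGR genes and the fall of FOSL1 at 48 h kept their direction and their call under both.

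Averaged over the 3 times, EGR1 (log2 fold change 0.45, SE 0.0601, edgeR adjusted p = 4.43e-06), EGR2 (log2 fold change 0.65, SE 0.128, edgeR adjusted p = 3.78e-04) and EGR3 (log2 fold change 0.92, SE 0.103, edgeR adjusted p = 4.97e-07) were higher. FOSL1 (log2 fold change -0.34, SE 0.0474, edgeR adjusted p = 6.52e-06) and JUN (log2 fold change -0.19, SE 0.0576, edgeR adjusted p = 0.0123) were lower in that average. These 3 higher and 2 lower of 10 compare with 14.9% and 21.0% (35.9% in either direction) of all genes. JUN was not past the threshold in the mean of 48 h and 96 h alone, added after the data were seen because NORAD was not lower at 24 h (edgeR adjusted p = 0.161), nor without knockdown replicate 2 of 24 h (0.127). Its mean also lost the call under total-count (-0.076, edgeR adjusted p = 0.273), upper-quartile (edgeR adjusted p = 0.1) and abundance-dependent scaling (0.0544). FOSB passed as higher in the mean under total-count (edgeR adjusted p = 0.00555) and upper-quartile scaling (0.0148), and over 48 h and 96 h alone FOSB (2.39e-04) and FOS (0.0364) did. The difference between times was tested itself, by an F test over the 3 differences. It passed for EGR1 (edgeR adjusted p = 2.50e-05), FOSL1 (0.00488), IER2 (0.0055), FOSB (0.00572) and JUNB (0.0279), 5 of 10 genes against 9.44% of all. EGR3 (edgeR adjusted p = 0.0597), FOS (0.0676) and EGR2 (0.0922) missed it. Between 48 h and 96 h alone, the EGR1 difference became smaller by 0.77 on the log2 scale (96 h minus 48 h, -0.77, SE 0.136, edgeR adjusted p = 0.00106) and the FOSL1 difference changed by 0.39 (SE 0.107, edgeR adjusted p = 0.0231). FOSB, JUNB and IER2 did not pass there (edgeR adjusted p = 0.700, 0.651 and 0.202). Without knockdown replicate 2 of 24 h 2 genes passed the F test, and without wild-type replicate 1 of 24 h 3 did. JUNB missed it without any one of 7 libraries (edgeR adjusted p from 0.0510 to 0.208), FOSB without either of those libraries (0.0764 and 0.0802) and IER2 without the first (0.0712).

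**Figure D3:**
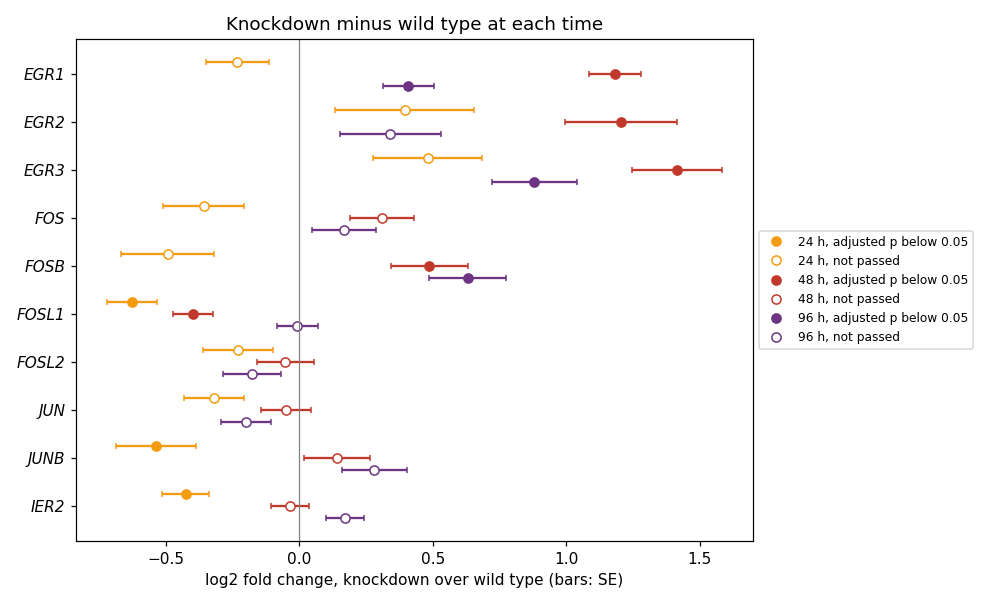
Log2 fold change of knockdown over wild type for each gene at 24 h, 48 h and 96 h (points) with its SE (bars). Filled points passed edgeR's test, and the 48 h points of EGR1, EGR2 and EGR3 lie above 1 while FOSL1 lies below 0 at 24 h and 48 h.

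Most genes of the set also changed with time in wild-type cells. Between 24 h and 48 h in wild type, 7 of 10 were lower and 1 was higher at 48 h, against 22.1% lower and 22.5% higher (44.6% in either direction) of all genes. JUN averaged 55.9 CPM at 24 h and 23.6 CPM at 48 h, the largest of these falls (log2 fold change -1.24, SE 0.102, edgeR adjusted p = 3.48e-09). JUNB (-1.09), FOSB (-0.87), FOSL2 (-0.86), EGR3 (-0.63), EGR1 (-0.50) and IER2 (-0.36) were lower as log2 fold changes, and FOSL1 was higher (log2 fold change 0.32, SE 0.0854, edgeR adjusted p = 0.00431). EGR3 lost that call without wild-type replicate 2 of 24 h (edgeR adjusted p = 0.113) or wild-type replicate 3 of 48 h (0.058). FOSL1 lost it without wild-type replicate 2 of 24 h (edgeR adjusted p = 0.0511).

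Between 48 h and 96 h in wild type, 4 of 10 genes were higher at 96 h and 2 were lower, against 23.7% and 22.7% of all genes (46.4% in either direction). EGR2 averaged 1.01 CPM at 48 h and 2.69 CPM at 96 h (log2 fold change 1.41, SE 0.207, edgeR adjusted p = 8.05e-06), and EGR1 (0.69), EGR3 (0.72) and JUN (0.28) were also higher as log2 fold changes. JUN lost that call without wild-type replicate 3 of 48 h (edgeR adjusted p = 0.081), replicate 1 of 96 h (0.058) or replicate 3 of 96 h (0.0514). FOSL1 averaged 219.8, 274 and 120.4 CPM at 24 h, 48 h and 96 h in wild type. The last step was the largest wild-type fall between 48 h and 96 h in the set (log2 fold change -1.19, SE 0.0768, edgeR adjusted p = 1.10e-10), and FOSL2 was lower too (-0.59). The knockdown and time comparisons share the wild-type libraries. EGR1 and EGR3 were lowest in wild type at 48 h, the time at which knockdown libraries stood furthest above them, while FOSL1 was highest in wild type at that time.

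A list of 30 other immediate early genes, like the lists below, was written from general knowledge with earlier results of these data known. Of these 30 genes, 0 were higher and 10 lower in the libraries labelled knockdown at 24 h, 6 higher and 7 lower at 48 h, and 5 higher and 1 lower at 96 h. Over all genes tested, 5.14% were higher and 12.4% lower at 24 h, 14.8% higher and 18.5% lower at 48 h, 5.35% higher and 5.15% lower at 96 h. The median log2 fold change of the list was -0.25 at 24 h, 0.06 at 48 h and 0.10 at 96 h. MYC, a growth-promoting transcription factor, was lower at 24 h (log2 fold change -1.11, SE 0.144, edgeR adjusted p = 5.53e-05), at 48 h (log2 fold change -1.74, SE 0.119, edgeR adjusted p = 1.37e-08) and at 96 h (log2 fold change -0.51, SE 0.115, edgeR adjusted p = 0.00695). TRIB1, a pseudokinase, was lower at 48 h (log2 fold change -0.86, SE 0.0904, edgeR adjusted p = 5.35e-07). CSRNP1 (0.83) and MAFF (0.70), both nuclear factors, were higher at 48 h as log2 fold changes. At 24 h the other lowest p-values were those of IER3 (-0.69), ATF3 (-0.75) and GADD45B (-0.80), stress-induced genes that were lower. At 96 h IER5L (0.51), MAFF (0.58) and CCN1 (0.47) were higher. Between 24 h and 48 h in wild type, 18 of the 30 were lower and 4 higher, against 22.1% and 22.5% of all genes. There MAFF (-1.71), BTG1 (-1.79), GADD45B (-1.44) and GEM (-1.47) had the lowest p.

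**Figure D4:**
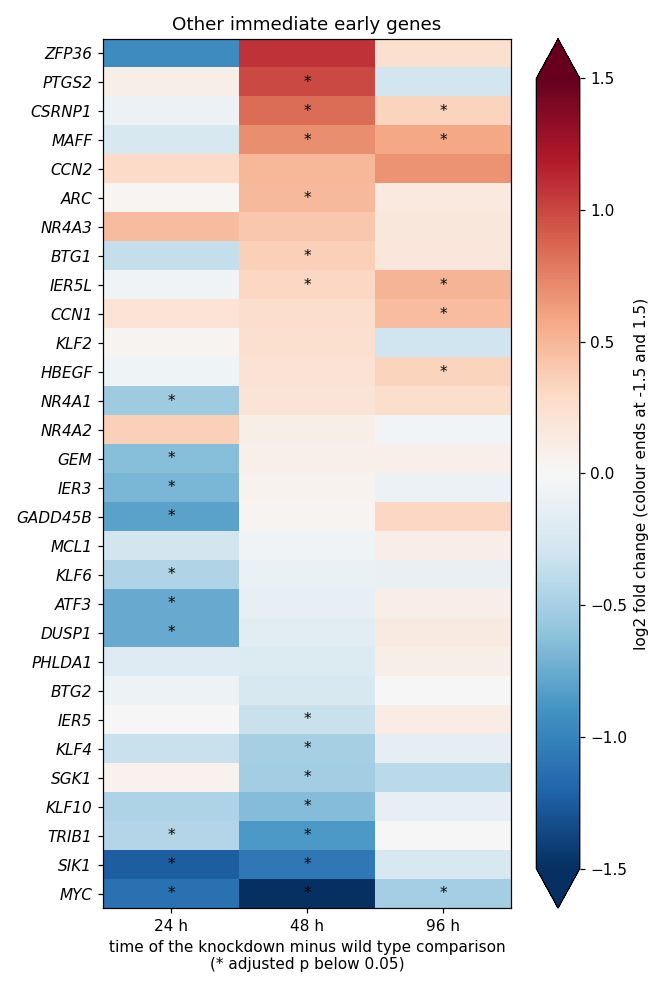
Log2 fold change of knockdown minus wild type for 30 other immediate early genes (rows) at 24 h, 48 h and 96 h (columns), with stars for an edgeR adjusted p below 0.05. The stars at 24 h are all on lower genes (10), and those at 48 h stand on both sides (6 higher, 7 lower).

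Of the EGR relatives and the NAB corepressors, which bind EGR proteins and are themselves induced by them, 2 of 3 tested genes were higher at 48 h and 2 at 96 h, against 14.8% and 5.35% of all genes. In DESeq2 2 passed at 48 h and 1 at 96 h. EGR4, at a mean of 1.28 CPM, was higher at 48 h (log2 fold change 0.71, SE 0.221, edgeR adjusted p = 0.0173) and at 96 h (log2 fold change 0.69, SE 0.219, edgeR adjusted p = 0.0474). NAB2 was higher at 48 h (log2 fold change 0.22, SE 0.0784, edgeR adjusted p = 0.0369) and 96 h (log2 fold change 0.38, SE 0.0780, edgeR adjusted p = 0.00239), and NAB1 passed at neither time. WT1 did not pass the filter. At 24 h none of the 3 tested genes passed in edgeR or in DESeq2, and 1 had an unadjusted p below 0.05 in edgeR. NAB2 was thus higher at the times at which EGR1 and EGR3 were. Its log2 fold change was larger at 96 h than at 48 h, whereas those of EGR1 and EGR3 were smaller at 96 h. A link between NAB2 and the EGR genes was not tested.

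Of 20 kinases and transcription factors upstream, 0 were higher and 3 lower at 24 h, 1 higher and 2 lower at 48 h, and 0 at 96 h (3 at an unadjusted p below 0.05, and 1 in DESeq2). Shares of all genes in either direction were 17.6%, 33.2% and 10.5%. The ERK kinase MAPK3 was higher at 48 h (log2 fold change 0.31, SE 0.0754, edgeR adjusted p = 0.00368). ATF1, a CREB relative, was lower at 48 h (log2 fold change -0.45, SE 0.106, edgeR adjusted p = 0.00237) and at 24 h (-0.52), and the kinase RPS6KA4 was lower at 48 h (-0.31). SRF was lower at 24 h (log2 fold change -0.30, SE 0.102, edgeR adjusted p = 0.0469), as was its partner ELK3 (-0.39). These are RNA levels, and kinase activity was not measured.

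Of 11 other AP-1 family genes tested, 2 passed at 24 h, 1 at 48 h and 3 at 96 h, against the same 17.6%, 33.2% and 10.5% of all genes. Among those named here, BATF2 was higher (1.28) and BATF3 lower (-0.57) at 24 h, and at 96 h BATF2 (0.58) and MAFK (0.25) were higher and ATF2 lower (-0.31), all as log2 fold changes. The third JUN gene, JUND, missed the threshold at 24 h (log2 fold change -0.26, SE 0.0903, edgeR adjusted p = 0.0516) and did not pass at 48 h or 96 h. Its wild-type change between 24 h and 48 h was the strongest of the list (log2 fold change -1.68, SE 0.0820, edgeR adjusted p = 1.24e-12), like the falls of JUN and JUNB there.

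Of 7 genes for AU-rich element binding proteins, 3 were lower and 1 higher at 24 h, 5 were lower at 48 h and 3 were lower at 96 h. Among all genes tested 12.4% were lower and 5.14% higher at 24 h, 18.5% were lower at 48 h and 5.15% at 96 h. ZFP36L1, which recruits deadenylases to such mRNAs, was lower at 24 h (-0.50), at 48 h (log2 fold change -1.05, SE 0.0798, edgeR adjusted p = 9.47e-09) and at 96 h (-0.35). Its relative ZFP36L2 was lower at 48 h (log2 fold change -1.01, SE 0.109, edgeR adjusted p = 9.03e-07) and 96 h (-0.40). HNRNPD was lower at all 3 times (-0.45, -0.60 and -0.28), ELAVL1, a stabilising protein, at 24 h (-0.26) and 48 h (-0.26), and KHSRP at 48 h (-0.33). TIA1 was higher at 24 h (0.38). The part of these changes in the levels of the 10 genes was not tested.

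Of 17 tested genes that AP-1 is known to regulate, 1 was higher and 3 lower at 24 h, 3 were higher and 7 lower at 48 h, and 5 were higher and 1 lower at 96 h, against all-gene shares of 5.14% higher with 12.4% lower (24 h), 14.8% with 18.5% (48 h) and 5.35% with 5.15% (96 h). CD44, an adhesion receptor, was lower at 48 h (log2 fold change -0.91, SE 0.0804, edgeR adjusted p = 6.45e-08), as were CCND1 (-0.65), PLAU (-1.02) and the cytokine LIF (-0.80). LIF was also lower at 96 h (-0.44), when CCND1 was higher (0.36), all as log2 fold changes. The heme oxygenase gene HMOX1 was lower at 24 h (-0.68).

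Over the 16 libraries, which share 6 groups, the genes whose log2 CPM followed each of the 4 most counted members most closely are given with Pearson's r, as a description. For EGR1 they were ABI2 (0.92), CDK20 (0.91), ARHGAP31 (0.91), RFLNB (0.89) and THEMIS2 (0.87). For FOSL1 they were U2AF2 (0.98), EIF6 (0.98), ALG3 (0.98), MRPL49 (0.98) and PSMC4 (0.98). For JUNB they were NAB2 (0.94), EHD2 (0.93), GTPBP1 (0.92), PLIN3 (0.92) and PLK3 (0.92), with NAB2 first, and for IER2 PLK3 (0.87), PHLDA2 (0.87), SESN2 (0.86), ANAPC11 (0.84) and VASP (0.84). PLK3, itself an early-response kinase, was on both of the last lists. The comparison covered 11052 genes with a mean of at least 5 CPM. Among the 10 genes themselves, EGR1, EGR2 and EGR3 followed each other with r of 0.85 (EGR1 and EGR2), 0.86 (EGR1 and EGR3) and 0.83 (EGR2 and EGR3). JUNB followed IER2 (0.83) and JUN (0.82), whereas EGR2 ran opposite to FOSL1 (-0.80).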

How the data were processed

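Strand-specific libraries of polyadenylated RNA were made from HCT116 cells, per the labels' protocols. The authors deposited 1 table of estimated counts (kallisto's expected counts), 1 row for each transcript. kallisto, DESeq2 and the build hg19 are named, without versions or settings, per the submitters' processing notes. All 18 values of 7 or more digits ended in 0 and so were rounded before deposit. Of 166096 transcripts, 156584 matched GENCODE 29 and were summed to 31496 genes and rounded. The 9512 unmatched transcripts (2.75% to 3.40% of a library) were left out. kallisto shares reads between similar transcripts by a model.

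Tests used edgeR 4.0.16 under R 4.3.3 (TMM, filterByExpr, glmQLFit with robust set, glmQLFTest), with a mean for each of 6 groups over all 16 libraries and 10 residual degrees of freedom, and Benjamini-Hochberg adjustment ran over 19836 genes. At 28391784 to 51853876 counts a library, variation between libraries limits precision more than counting for all but the least counted genes. Replicates differed by more than counting error (chi-square per degree of freedom 7.84 to 56.1). Alternatives were other scalings, DESeq2 1.42.0, no filter, a replicate block, the libraries of a comparison alone and each library left out. TPM used annotated transcript lengths and 0.5 counts were added only in the abundance-dependent scaling. All 10 members are named, from other lists up to 4 genes with the lowest p per comparison and every gene of lists of up to 8, and likeness lists hold 5 genes. Some genes that this rule would name are not reported here. The members and the lists, written from general knowledge, were chosen with earlier results of these data known.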

Additional observations from a re-analysis of the deposited data

Results flagged for a closer look

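For 5 genes the difference between knockdown and wild type differed between the 3 times by edgeR's F test on that difference. EGR1 had the lowest edgeR adjusted p (2.50e-05), with log2 fold changes of -0.23 at 24 h, 1.18 at 48 h and 0.41 at 96 h. FOSL1 (edgeR adjusted p = 0.00488) was lower at 24 h (-0.63) and 48 h (-0.40) and stood at -0.01 at 96 h. IER2 (edgeR adjusted p = 0.0055) was lower at 24 h (-0.43) and stood at -0.03 and 0.17 at 48 h and 96 h. FOSB (edgeR adjusted p = 0.00572) stood at -0.49 at 24 h and was higher at 48 h (0.49) and 96 h (0.63). JUNB (edgeR adjusted p = 0.0279) was lower at 24 h (-0.54) and stood at 0.14 and 0.28 later. The 24 h libraries labelled knockdown did not have less NORAD than wild type, so the first time differs from the others in this as well, and its part in these differences was not tested. With groups of 2 and 3 libraries no test for outlying libraries was made. Knockdown replicate 3 of 48 h stood apart as described above, and each library was left out in turn.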

How the results depend on the processing

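EGR1, EGR2 and EGR3 stayed higher and FOSL1 lower at 48 h, EGR3 higher at 96 h and FOSL1 lower at 24 h, past the threshold, under all 24 alternatives run for each of them. Of 1680 comparisons of a single gene's value with an alternative, 1554 kept their direction and side of the threshold, 40 lost and 45 gained a call, and 41 changed sign. Of these, 1 passed with its sign changed in the knockdown comparisons (IER2 at 48 h) and 1 in wild type (IER2 between 48 h and 96 h), both under abundance-dependent scaling. The cause was not tested.

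Fitting only the libraries of a time gave 5 of 10 genes at 24 h and 5 at 96 h, and the difference between 48 h and 96 h alone gave 2. No share over all genes was taken for these fits or for those with 1 library left out. With 1 library left out the counts ranged from 1 to 6 at 24 h, 4 to 6 at 48 h, 1 to 3 at 96 h, and 2 to 7 for the difference between times. No pairing of libraries by replicate number was seen (0 of 8 pairs had a correlation of deviations over 0.1, range -0.263 to 0.062). At 24 h both pairs give the same value by construction, and the check cannot exclude that replicates were handled in pairs. With the replicate block 2, 5 and 3 genes passed at 24 h, 48 h and 96 h, against 2587, 5227 and 1437 of all 19836 genes. JUNB lost its 24 h call (edgeR adjusted p = 0.0656) and its difference between times (edgeR adjusted p = 0.111). The block changed no other call of the 10 genes.

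Signs changed as follows. With total-count, then upper-quartile, then abundance-dependent scaling, the 48 h log2 fold changes were 0.085, 0.059 and 0.069 for FOSL2, 0.10, 0.082 and 0.17 for IER2, and 0.088, 0.064 and 0.039 for JUN. The mean over times was then 0.075, 0.042 and 0.090 for JUNB, and 0.019 (total-count) and 0.048 (abundance-dependent) for IER2, whose wild-type change between 48 h and 96 h was 0.078, 0.091 and 0.21. Over 48 h and 96 h alone the means were 0.067 for IER2 and 0.21 for JUNB. IER2 in wild type was 0.0072 with no filter and 0.0015 from those times' libraries alone. FOSL1 at 96 h was 0.0013 in DESeq2, 0.0013 with its size factors, 0.00095 from its own libraries and 0.0082 under upper-quartile scaling. With 1 library left out the ranges were -0.013 to 0.095 (FOS, mean), -0.076 to 0.25 (FOS, wild type, 24 h to 48 h), -0.038 to 0.011 (FOSL1, 96 h), -0.19 to 0.063 (FOSL2, 48 h), -0.076 to 0.0097 (IER2, 48 h), -0.038 to 0.042 (IER2, wild type, 48 h to 96 h), -0.15 to 0.023 (JUN, 48 h), -0.019 to 0.23 (JUNB, 48 h) and -0.092 to 0.013 (JUNB, mean). EGR2, FOSB and EGR3 had the fewest counts of the 10 genes.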

Other observations

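The share of a gene's counts that kallisto gave to each transcript also differed between libraries, as values without a test. EGR1, JUN and JUNB have 1 transcript each in the table. The coding FOSL1 transcript ENST00000448083 held 13.7% to 19.1% of the gene's counts in knockdown and 7.42% to 10.2% in wild type at 48 h, without overlap, and 3.38% to 5.03% and 4.02% to 5.80% at 96 h. It was also apart at 24 h, where NORAD was not lower, with 8.62% to 9.92% in libraries labelled knockdown and 5.71% to 6.29% in wild type. The coding FOSL2 transcript ENST00000379619 held 9.18% to 23.8% in knockdown and 0% to 3.84% in wild type at 48 h. Its share was 1.37% to 1.88% in libraries labelled knockdown and 0.98% to 1.35% in wild type at 24 h. By 96 h it was 0% to 4.36% in knockdown and 4.33% to 6.69% in wild type. Such gaps were not counted over all transcripts. ENST00000524088, annotated as a processed transcript of EGR3, held 34.1% to 34.5% of its counts in the libraries labelled knockdown and 16.7% to 25.0% in wild type at 24 h, and at most 11.7% in any later library. ENST00000353609 held 0% to 55.3% of FOSB in knockdown and 25.9% to 29.03% in wild type at 48 h, so its share among replicates varied widely at these counts.

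Within groups the 10 genes correlated positively in every pair, as a description, since pairs of other genes were not compared in this way. After the group means were removed, Pearson's r of log2 CPM was above 0 in 45 of 45 pairs of the genes over the 16 libraries (0.08 to 0.88), against 29 of 45 with the group means left in (-0.80 to 0.86). EGR1 and FOSL1 had an r of 0.78 within groups and -0.43 over all libraries. All libraries share their scaling between genes, and knockdown replicate 3 of 48 h, highest of its group in all 10 genes, enters each of these values.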
